A study of Mus musculus with 31 samples.

Results

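The genes examined here are 10 mouse genes of fat cell formation, namely Zfp423, Cebpb, Cebpd, Cebpa, Pparg, Lpl, Fabp4, Plin1, Adipoq and Lep, out of 21938 annotated protein-coding genes. They were listed by name as regulators and markers of the adipocyte, with earlier results of these data known, and no measured value entered the rule. The measurement was ATAC-seq, in which Tn5 transposase cuts and tags DNA that is accessible in chromatin, on 1 library of parental NIH-3T3 cells, a line of mouse embryonic fibroblasts. The study used this library to define which regions of the NIH-3T3 genome were accessible before transcription factors (TFs) were overexpressed, and its other 30 samples were not analysed here. The labels give 50000 cells, growth in DMEM with serum and neither a transgene nor a drug for the parental line. The methods mention doxycycline before ATAC-seq in general, and whether the parental cells received it is not given in the sources used here. No groups of samples were compared, so every value below is a description of 1 library without a replicate check.

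Fat cell formation from fibroblast-like precursors runs through a TF cascade. Zfp423 is a zinc-finger factor of committed preadipocytes, C/EBPβ and C/EBPδ are induced within hours of an adipogenic stimulus, and they in turn activate Pparg and Cebpa, which maintain the adipocyte state and switch on genes of lipid storage and secretion. PPARγ, a nuclear receptor, is made from separate promoters as PPARγ1, present in many tissues, and PPARγ2, typical of fat. NIH-3T3 cells convert to adipocytes poorly unless factors of this cascade are supplied, unlike the related 3T3-L1 line. Here the list comprised 1 commitment factor (Zfp423), 2 early C/EBP factors (Cebpb and Cebpd), 2 later regulators (Cebpa and Pparg) and 5 markers (Lpl, Fabp4, Plin1, Adipoq and Lep).

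The identity of the cells was checked with markers of other cell types. All 12 fibroblast markers, among them Col1a1, Vim and Twist1, had a peak within 1 kb of a start, with folds from 3.41 to 10.52. Of 15 epithelial, blood, liver and neural markers, 2 had one, namely Krt8 with a fold of 3.25 and Spi1 with a fold of 3.22. Among all protein-coding genes the share was 53.7%. The weakest fibroblast peak, that of Thy1 with 12 fragments, was close in fold to those of Krt8 and Spi1, which had 22 and 18 fragments. The Thy1 peak lay beyond the annotated end of the gene, 862 bp from an internal start. At the first start of Thy1 there was no peak, so the count of 12 holds for any annotated start only.

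The promoter sequences on which the results turn are shown first, as the bases that lie directly before the transcription start in RefSeq (GRCm38.p6, the mm10 build), each read 5′ to 3′ on the gene's own strand. The Lep sequence stops 1 base short of the RefSeq start, directly before the GENCODE start. Capitals mark a match to the C/EBP consensus TTNNGCAA on either strand or to the TATA box TATAAA. The table of promoter sequences held 7 of the 10 genes with 10 promoters, and Cebpd, Lpl and Fabp4 were not in it.
Zfp423, first start, chr8:87959596-87959745, minus strand: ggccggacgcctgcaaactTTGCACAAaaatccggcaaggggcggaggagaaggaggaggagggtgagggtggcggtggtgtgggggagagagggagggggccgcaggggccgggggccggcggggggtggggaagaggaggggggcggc
Cebpb, chr2:167688765-167688914, plus strand: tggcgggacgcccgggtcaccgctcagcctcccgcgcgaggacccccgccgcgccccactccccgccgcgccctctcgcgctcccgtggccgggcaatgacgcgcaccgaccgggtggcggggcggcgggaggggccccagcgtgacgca
Cebpa, chr7:35119143-35119292, plus strand: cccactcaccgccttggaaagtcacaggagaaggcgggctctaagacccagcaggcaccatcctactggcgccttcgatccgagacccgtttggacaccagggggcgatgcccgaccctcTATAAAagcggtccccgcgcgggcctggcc
Pparg2, chr6:115421916-115422065, plus strand: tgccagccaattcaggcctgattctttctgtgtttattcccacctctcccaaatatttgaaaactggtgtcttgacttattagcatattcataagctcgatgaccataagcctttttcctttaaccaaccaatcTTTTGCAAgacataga
Adipoq, chr16:23146386-23146535, plus strand: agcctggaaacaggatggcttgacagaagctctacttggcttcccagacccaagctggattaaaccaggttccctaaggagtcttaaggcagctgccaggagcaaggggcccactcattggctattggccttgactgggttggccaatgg
Lep, chr6:29060071-29060219, plus strand: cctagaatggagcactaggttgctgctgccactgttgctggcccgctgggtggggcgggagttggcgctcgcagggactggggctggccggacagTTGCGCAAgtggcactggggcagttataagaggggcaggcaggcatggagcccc
Cebpb, Cebpa and the first Zfp423 start are shown because they are rich in CpG and yet only Cebpb had a peak. Pparg2, Adipoq and Lep are shown because they stand for promoters of fat cells that are poorer in CpG.

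Peaks at most 1 kb from a GENCODE M21 transcript start were taken as promoter peaks of that gene. By this measure 5 of the 10 genes had a promoter peak, against 53.7% of all protein-coding genes, so the share among them was near the background. The 5 were Cebpb, Cebpd, Pparg, Lpl and Plin1. Zfp423, Cebpa, Fabp4, Adipoq and Lep had none. Only Cebpb, Cebpd and Lpl had a peak at the first start of the gene, while the peaks of Pparg and Plin1 lay at internal starts. The size of a peak is given below as its fold enrichment, the fragment pileup at the summit over the local expected pileup with 1 added to each, together with the number of fragments at the summit and the 95% Poisson interval that this number allows. These intervals cover counting error only.

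**Figure D1:**
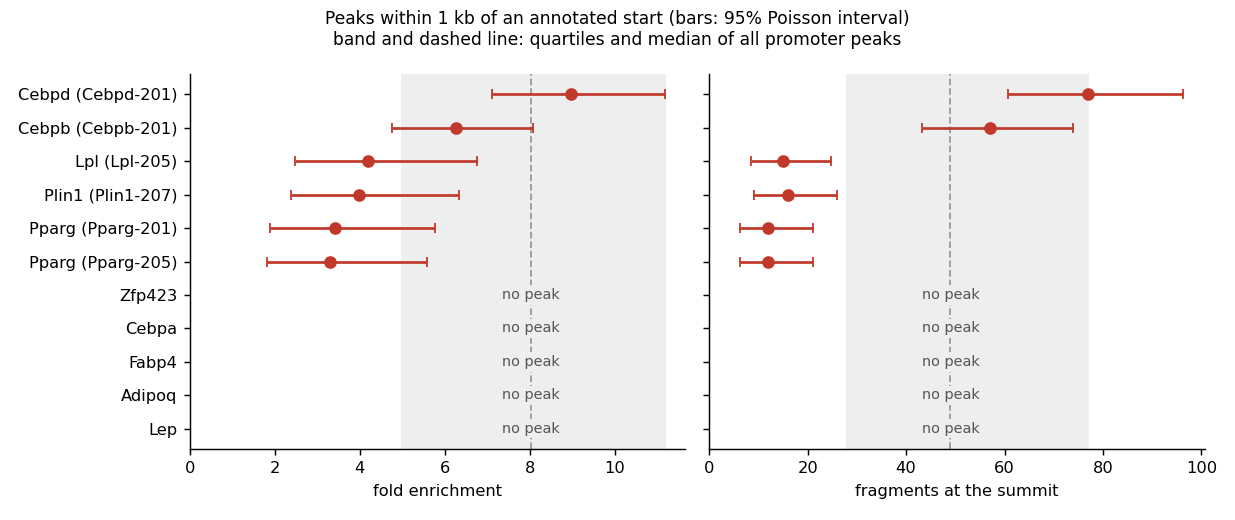
Fold enrichment (left) and fragments at the summit (right) of the 6 peaks within 1 kb of a start of the 10 genes, labelled with the nearest transcript, in 1 library. Bars are 95% Poisson intervals, the band and dashed line are the quartiles and median of all 16264 promoter peaks, and the peaks of Cebpd and Cebpb have 77 and 57 fragments against 12 to 16 in the other 4.

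Cebpd, which encodes C/EBPδ, had the strongest promoter peak of the list (chr16:15886633-15888069). Its fold was 8.98 (interval 7.11 to 11.20) with 77 fragments at the summit, and its −log10 q was 46.0. The summit lay 65 bp before the start of Cebpd-201, and the peak spanned 1437 bp, more than the upper quartile of 913 bp over all promoter peaks. The fold was higher than that of 57.6% of promoter peaks, so in fold this promoter was in the middle of the range for promoters that have a peak. In fragments at the summit it was higher, above 74.3% of promoter peaks. Its expected pileup of 7.68 fragments divides the fold.

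Cebpb, which encodes C/EBPβ, had a promoter peak of 831 bp (chr2:167688853-167689683) that covered the start of its only transcript. The fold was 6.26 (interval 4.77 to 8.08) with 57 fragments and a −log10 q of 25.9, and 35.6% of promoter peaks had a lower fold. The summit was in the coding exon 167 bp after the start, where a noncoding transcript of the opposite-strand gene Tmem189 also starts within 1 kb, so the peak cannot be given to Cebpb alone. Its expected pileup of 8.27 fragments was the highest at any of the 68 peaks around the 10 genes, and this value divides the fold. In fragments at the summit, Cebpb was above the median of 49 for promoter peaks, although in fold it was below the median of 8.03.

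Neither later regulator had a peak at its first start. Cebpa, which encodes C/EBPα, had no peak within 1 kb of either of its starts, and the nearest peak was 7760 bp away. Pparg had no peak at either PPARγ1 promoter region: from the first GENCODE start the nearest peak was 10985 bp away, and from the second PPARγ1 start of RefSeq it was 10278 bp away. A small peak lay 113 bp before the start of Pparg-201, the PPARγ2 transcript (chr6:115421808-115421953), with a fold of 3.41 (interval 1.89 to 5.77), 12 fragments and a −log10 q of 2.95. Another lay over the start of the retained-intron transcript Pparg-205 (chr6:115439775-115440014), in a coding exon, with a fold of 3.30 and 12 fragments. The lowest number of fragments at any summit in the list of 63456 peaks was 10, so both were close to the limit of detection.

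Zfp423 had no peak within 1 kb of any of its 7 starts. The nearest peak to a start was 12339 bp from an internal one, and 31669 bp separated the first start from its nearest peak.

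Of the markers, Lpl, the lipase that releases fatty acids from circulating lipoproteins, had a peak that began 27 bp after its first start (chr8:68880518-68881005). Its fold was 4.20 (interval 2.47 to 6.76) with 15 fragments. Plin1, which encodes the lipid droplet coat protein perilipin 1, had a peak of fold 3.99 (interval 2.38 to 6.33) with 16 fragments, 344 bp from the start of a short internal transcript (chr7:79729296-79729521). From the first Plin1 start the nearest peak was 3382 bp away. The next peak of Plin1, just outside the 1-kb limit at 1406 bp from that internal start, had a fold of 4.92. Fabp4, a fatty acid carrier, had its nearest peak at 3297 bp, the hormone gene Adipoq (adiponectin) at 9345 bp and Lep (leptin) at 35816 bp.

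Both early C/EBP factors had a promoter peak, as did 2 of the 5 markers and 1 of the 2 later regulators. The share over all protein-coding genes was 53.7%, and counts over so few genes do not set the classes apart. With 2 genes in the early class the difference between classes was not tested. The interval of Cebpd in fold did not overlap those of Lpl, Plin1 and Pparg, whereas the interval of Cebpb overlapped all of them. In fragments at the summit, 43.2 to 73.9 for Cebpb and 60.8 to 96.2 for Cebpd stood clear of the upper bounds of the other promoter peaks, the highest of which was 26.0 for Plin1. These counts do not allow for the expected pileup, which was 8.27 for Cebpb and 7.68 for Cebpd, against 2.81 to 3.26 at the others. Cebpb and Cebpd did not differ beyond these intervals in fold or in fragments.

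CpG-rich promoters are usually accessible in any cell type, so the promoters were also read against their own class. A promoter window from 250 bases before to 50 bases after the RefSeq start was called CpG-rich at a CpG observed/expected ratio of 0.6 or more and a GC content of 50% or more. Among coding genes 80.6% of CpG-rich promoters and 24.8% of the others had a peak within 1 kb. Of the 10 promoters available, 4 were CpG-rich, those of Cebpb (1.03), Pparg1 at its first start (0.91), Cebpa (0.85) and Zfp423 at its first start (0.69), and a peak was found at 1 of the 4, that of Cebpb. The other 6 were Lep (0.59), the second Pparg1 start (0.47), the internal start of Zfp423 (0.23), Pparg2 (0.17), Plin1 (0.09) and Adipoq, which had no CpG at all. A peak was found at 1 of these 6, that of Pparg2. Lep was just under the limit, with a GC content of 66.0%. Neither count includes Cebpd, which had the strongest promoter peak of the list, nor Lpl and Fabp4, since these genes were not among the promoters available.

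**Figure D2:**
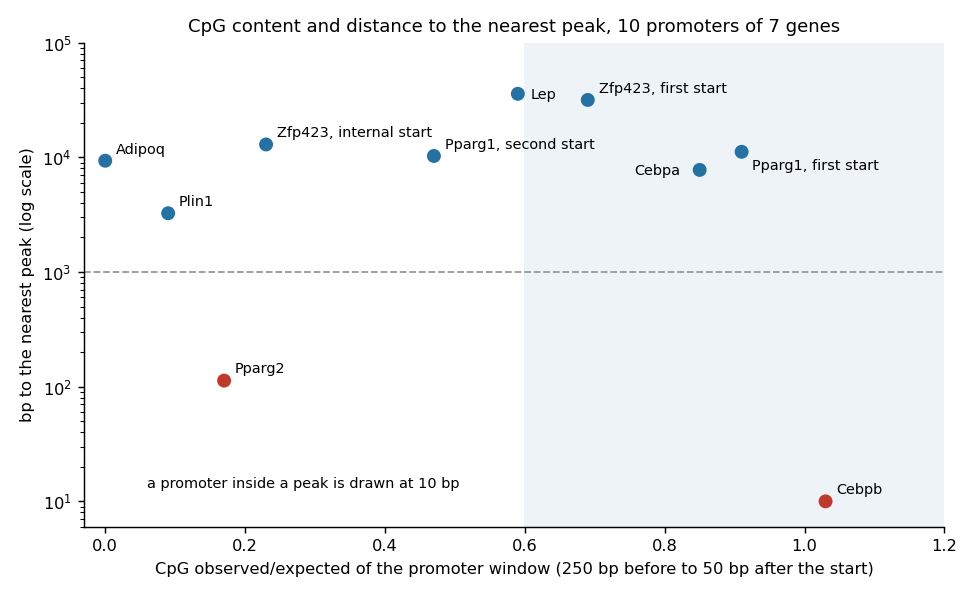
CpG observed/expected ratio of the promoter window against the distance from the start to the nearest peak in bp (log scale), for the 10 RefSeq promoters of 7 genes. Shading marks a ratio of 0.6 or more and the dashed line 1 kb; Cebpb and Pparg2 are below the line and 3 CpG-rich promoters are above it, 7770 to 31669 bp from a peak.

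The absence of a promoter peak did not mean that the surroundings lacked peaks. Within 50 kb of the 10 genes there were 68 peaks, 19 of them in gene bodies and 6 within 1 kb of a start of the gene. Of the 68, 9 lay at the start of another coding gene, the Cebpb peak included. The density was 7.99 peaks per 100 kb for Plin1, 7.88 for Cebpb, 7.41 for Pparg, 7.18 for Adipoq, 5.85 for Cebpa and 5.74 for Fabp4, all above the median of 3.94 over coding genes. It was 2.89 for Cebpd, 2.36 for Lpl, 1.76 for Lep and 1.51 for Zfp423, all below it. Cebpd, with the strongest promoter peak, was thus among the genes with few peaks around them, and Adipoq, with no promoter peak, among those with many.

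**Figure D3:**
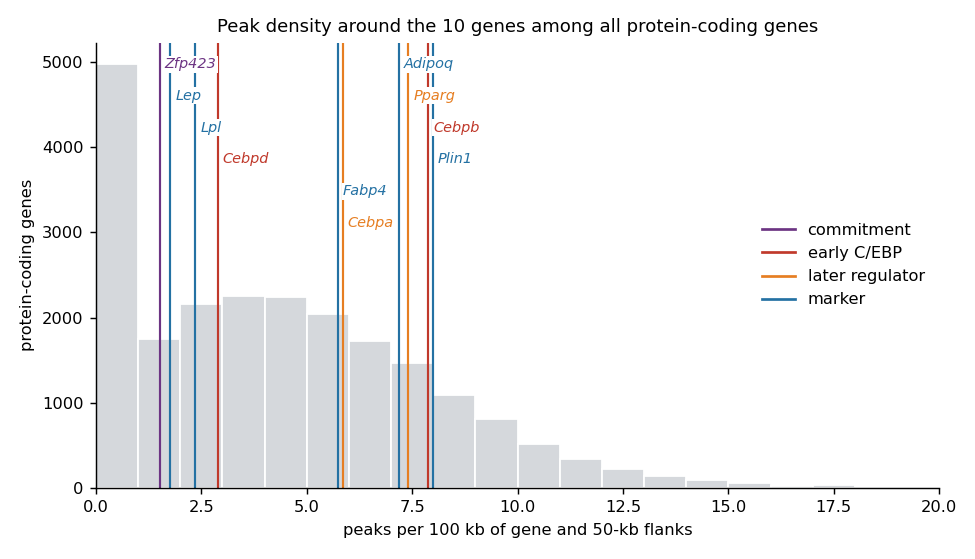
Number of protein-coding genes (vertical axis) by peaks per 100 kb of gene and 50-kb flanks (horizontal axis, drawn up to 20), with a line for each of the 10 genes coloured by role. Plin1, Cebpb, Pparg and Adipoq are at 7.18 to 7.99 and Zfp423, Lep, Lpl and Cebpd at 1.51 to 2.89.

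**Figure D4:**
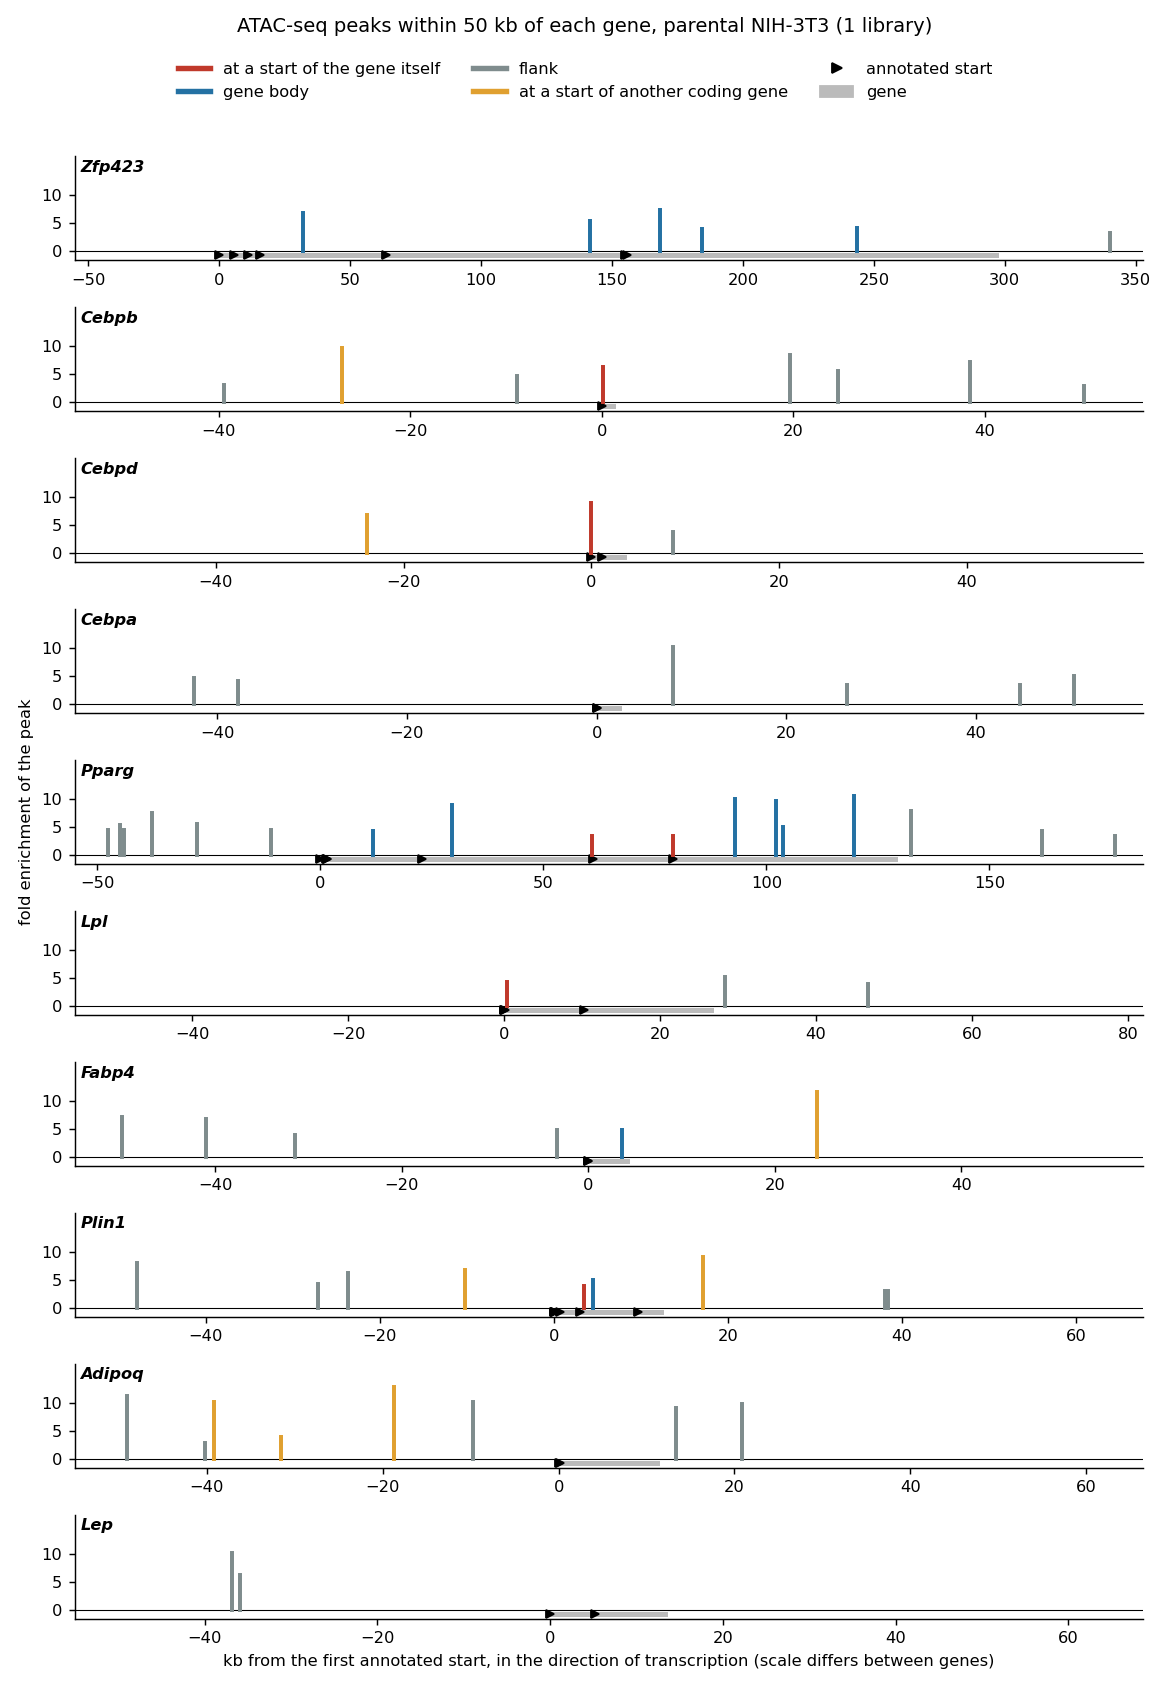
Position of every peak within 50 kb of each gene, in kb from its first start in the direction of transcription, against fold enrichment. Bars are single peaks coloured by place, grey boxes are the genes and arrowheads their annotated starts; Pparg has 17 peaks, the strongest inside the gene, and Lep 2 peaks, both over 35 kb before its start.

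Pparg had the most peaks of the list, 17 within 50 kb, of which 8 were in the gene body. The strongest were far from the promoters. A peak in an intron 119539 bp after the first start (chr6:115480036-115480681) had a fold of 10.54 (interval 7.98 to 13.66) and 55 fragments. Further intragenic peaks had folds of 10.02 (chr6:115453617-115453996, intron) and 9.70 (chr6:115462951-115463499, summit in a coding exon). These 3 peaks had 41 to 55 fragments, whereas both promoter peaks of the gene had 12. In the flanks the highest fold was 7.86, downstream of the gene (chr6:115493020-115494141). Upstream, the highest was 7.49, at 37720 bp before the first start.

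Cebpa had 6 peaks in its flanks and none in the gene. One of them, 8018 bp after the first start (chr7:35127063-35127924), was far above the rest. Its fold was 10.25 (interval 7.61 to 13.52) with 48 fragments, while the other 5 had folds from 3.38 to 4.97 and 12 to 22 fragments. Zfp423, a gene of 297786 bp, had 5 peaks, all in introns, and 1 peak in a flank. The strongest had a fold of 7.26 with 30 fragments (chr8:87791067-87791484) and the next 6.79 with 27 (chr8:87927437-87927926).

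Around Cebpb the peaks stood on a raised expected pileup, from 4.72 to 8.27 fragments, against a genome background of 2.81. Its strongest flanking peak, with a fold of 9.68, was 27103 bp upstream at starts of Tmem189 and Gm20431. The next 2 were downstream in the noncoding gene A530013C23Rik, with folds of 8.36 (chr2:167708325-167708760) and 7.10 (chr2:167727069-167727629). Cebpd had 2 flanking peaks, with a fold of 6.73 at the start of Mzt2 and a fold of 3.74 inside Spidr.

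Adipoq had 8 peaks in its flanks and none in the gene, and 3 of them were at starts of the neighbours Rfc4 and Eif4a2, genes of DNA replication and of translation. The highest fold of the list, 12.95 (interval 10.15 to 16.29), was the Rfc4 peak 18715 bp upstream of Adipoq. Of its 5 peaks more than 1 kb from any start, 4 were in the upper quartile of such peaks in the genome. This quartile begins at a fold of 8.14. Over the 10 genes together, 10 of the 51 such peaks were in it, these 4 included. The strongest of the 4 Adipoq peaks had folds of 11.19 (chr16:23097103-23097928) and 10.23 (chr16:23136561-23137191), the latter 9706 bp before the Adipoq start. These 2 peaks lie on related sequence, with 93.6% identity on opposite strands, so their values are uncertain where reads could not be placed uniquely.

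Fabp4 had 6 peaks. The strongest, of fold 11.57, was at the start of Pmp2, a relative of the same family of fatty acid binding proteins, 24536 bp beyond the Fabp4 start. The next, with folds of 7.09 and 6.83, were in an intron of Fabp12, another relative. The peak inside Fabp4 and the one 3382 bp before its start each had a fold of 4.73 and 17 fragments. Plin1 had its strongest flanking peaks at the start of Kif7 (fold 9.06), in an intron of Wdr93 (7.98) and at the starts of Pex11a and Wdr93 (6.83). Lpl had 2 flanking peaks, with folds of 5.25 and 3.94, both downstream. Lep had 2 peaks in all, of folds 10.14 and 6.17, in exons of the noncoding gene Gm3294. The stronger was within 1 kb of the microRNA gene Mir129-1.

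Grouped by role, the median fold of all peaks within 50 kb was 6.26 for the early C/EBP factors (11 peaks), 4.73 for the later regulators (23 peaks), 6.23 for the markers (28 peaks) and 4.82 for Zfp423 (6 peaks). For the peaks more than 1 kb from any start alone, the median was 4.72 for the early C/EBP factors (7 peaks), 4.73 for Cebpa (5 peaks), 5.49 for Pparg (14 peaks) and 5.25 for the markers (19 peaks), so the early factors were not higher there. Over all 68 peaks, promoters included, the median was 5.35, against 6.04 over all peaks in the genome. Of the 28 marker peaks, 6 were at starts of other coding genes, as were 3 of the 11 early C/EBP peaks and none of the 23 later regulator peaks.

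The summits of the peaks were searched on both strands for consensus sequences of TFs, in windows centred on each summit. The AP-1 consensus TGANTCA, bound by dimers of Fos and Jun, was in 18 of the 68 windows (26.5%), against 26.2% of all peaks. Among peaks more than 1 kb from any start it was in 17 of 51 (33.3%), against 31.9%. Around Pparg it was in 6 of 14 such windows. The C/EBP consensus was in 4 of the 68 (5.88%), against 4.09% of all peaks. The RUNX core TGTGGT was in 12 of 68 (17.6%), against 11.4%, and the TEAD consensus GGAATG in 3 of 68 (4.41%), against 8.39%. The 2 Adipoq peaks on related sequence were among both the 4 with C/EBP and the 12 with RUNX, so these counts hold copies of 1 sequence. The direct repeat bound by PPARγ with RXR, AGGTCA repeated after 1 base, was in none of the 68 and in 5 of all 63456 windows, so this strict form is too rare to describe these peaks.

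A selection of the windows with an AP-1 or C/EBP match is shown from the reference genome (GRCm38, mm10), with the match in capitals. They are the strongest peak in Zfp423, the peak at the PPARγ2 start, the strongest peak inside Pparg, the peak over a Pparg coding exon and the strongest distal peaks near Adipoq.
Zfp423, intron, chr8:87791272-87791372, plus strand: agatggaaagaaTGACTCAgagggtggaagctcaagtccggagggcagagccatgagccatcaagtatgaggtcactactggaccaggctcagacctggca
Pparg, before the PPARγ2 start, chr6:115421774-115421874, plus strand: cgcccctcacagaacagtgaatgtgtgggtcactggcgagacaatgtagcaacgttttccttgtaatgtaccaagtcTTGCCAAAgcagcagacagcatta
Pparg, intron, chr6:115480440-115480540, plus strand: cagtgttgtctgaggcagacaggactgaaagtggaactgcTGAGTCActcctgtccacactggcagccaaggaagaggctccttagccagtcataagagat
Pparg, coding exon, chr6:115463121-115463221, plus strand: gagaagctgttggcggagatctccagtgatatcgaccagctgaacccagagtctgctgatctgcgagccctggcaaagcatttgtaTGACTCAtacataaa
Adipoq, far upstream, chr16:23097385-23097485, plus strand: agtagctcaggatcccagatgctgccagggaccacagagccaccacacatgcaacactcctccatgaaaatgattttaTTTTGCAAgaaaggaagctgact
Adipoq, near upstream, chr16:23136780-23136880, plus strand: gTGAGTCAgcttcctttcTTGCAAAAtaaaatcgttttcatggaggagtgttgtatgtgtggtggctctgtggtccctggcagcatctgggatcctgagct
The Zfp423 window and both windows inside Pparg carry AP-1 matches, and the window before the PPARγ2 start a C/EBP match. Both Adipoq windows carry a C/EBP match, the nearer one together with an AP-1 match. They hold related sequence on opposite strands, and the farther window ends in tgact, inside the stretch that corresponds to this AP-1 match. The windows therefore cannot show whether the farther peak lacks it. Among the other peaks named above, those with folds of 8.36 near Cebpb, 10.14 near Lep, 5.25 near Lpl and 7.09 near Fabp4 also carry AP-1 matches and are not printed. Such matches are descriptions of the sequence and do not show binding.

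In the 250 bases before the starts, C/EBP matches were found in 4 of the 10 promoters, namely Zfp423 at its first start, Pparg2 with 2 matches, Plin1 with 2 matches and Lep. Over all 21263 coding promoters 9.09% held one. The Lep match TTGCGCAA lay 55 to 48 bases before the RefSeq start, and the nearer Pparg2 match TTTTGCAA 16 to 9 bases before it. No AP-1 match was found in these 10 windows, against 6.13% of coding promoters. Cebpa held TATAAA 30 to 25 bases before its start, which 2.84% of coding promoters held in the last 40 bases. Of the promoters with a C/EBP match, Pparg2 alone had a peak within 1 kb.

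The 10 genes were finally set beside 50 other genes of adipogenesis and lipid metabolism. Of these, 31 had a promoter peak (62.0%), against 53.7% of coding genes. At the most upstream start alone, 24 of the 50 had one, against 48.9% of coding genes. Regulators that promote adipogenesis had one in 13 of 18 cases, with a median fold of 8.64. The highest were those of Creb1 (15.79), Cebpg (15.29), Klf5 (14.17) and Nr1h3 (10.82), which encode the cAMP-responsive factor CREB, the C/EBP relative C/EBPγ, a Krüppel-like factor and the liver X receptor α. Klf15, Ebf2, Zfp467 and Prdm16 had none. Rxra, the partner of PPARγ, had the lowest promoter fold of this class at 2.52.

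Genes of inhibitors had a promoter peak in 6 of 8 cases, with a median fold of 8.85. The highest were Gata3 (13.12), Klf2 (12.45), Zfp521 (9.10) and Klf3 (8.60), and Dlk1, the preadipocyte factor Pref-1, and Wnt10b had none. Lipid and adipocyte markers were split, with a peak at 12 of 24. Acsl1 (12.63), Acaca (12.44), Dgat1 (11.07) and Lipe (10.52), enzymes of fatty acid activation, synthesis, storage and release, were the highest. Among those without one were the fatty acid transporter Cd36, the lipid droplet genes Cidec and Cidea, and Slc2a4, the insulin-responsive glucose transporter. All 5 promoter folds of the 10 genes, the highest of each gene, were below the median of 9.86 over coding genes with a promoter peak. Those of Lpl, Plin1 and Pparg were also below the highest promoter fold of every inhibitor and marker gene with a peak. The lowest of these highest folds were 8.03 for the inhibitors and 6.14 for the markers.

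**Figure D5:**
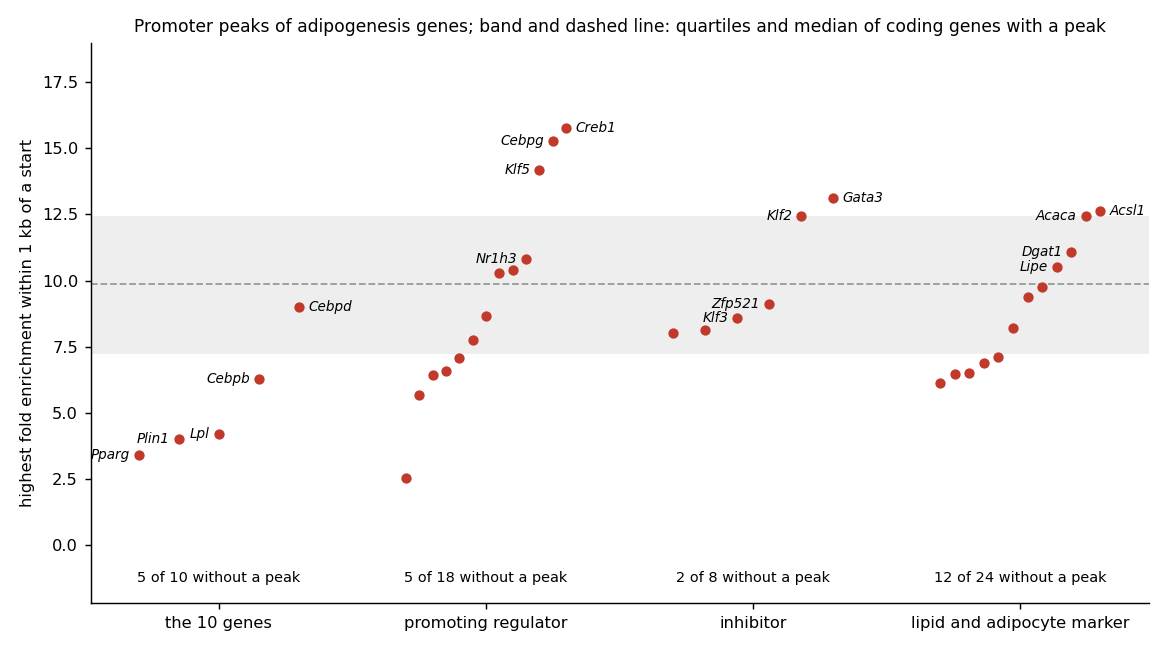
Highest fold enrichment within 1 kb of a start for the 10 genes and for 50 other adipogenesis genes by role, each point a gene, with the 4 highest of each added list named. The band and dashed line are the quartiles and median (9.86) over coding genes with a promoter peak, and the genes without a peak are counted below the points, 12 of 24 for the lipid and adipocyte markers.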

How the data were processed

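The data were the ATAC-seq peak list of the parental NIH-3T3 line. According to the methods and the submitters' processing notes, reads were mapped by the authors with STAR 2.5.3a (mm10, unique alignments only), duplicates were taken out using Picard, and MACS2 2.1.1.20160309 was run for peak calling in paired-end mode. No shift of Tn5 cut sites is stated. The labels give 12 PCR cycles. For every peak the authors deposited a fold enrichment, a ratio of pileups, with the −log10 p and −log10 q of a Poisson test and a score derived from q. The lowest −log10 q was 1.30. The number of reads of the library is not given in the file.

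Peaks were compared with GENCODE M21 and the GRCm38 sequence, counted from 1. Fragment and expected pileups were solved from the fold and the −log10 p by bisection, after a check on simulated data, and 99.997% came within 0.02 of a whole number. Motifs were searched in 101-bp windows at summits and in RefSeq promoter windows. No test was made, since only 1 library was analysed. Members and gene lists were chosen with earlier results of these data known. All peaks within 1 kb of a start were named, with up to 3 body and 3 flanking peaks of the highest fold per gene and, per added list, up to 4 genes with the highest promoter fold and the first 4 without a peak. Rxra, and the peak in a flank of Pparg upstream of the gene, were singled out with their values known. Alternatives changed the q, fold and distance limits, the starts used, the flank, the summit window and the CpG limit. Blacklisted regions were not filtered here. The software was matplotlib 3.10.9, pysam 0.24.0, SciPy 1.17.1, pandas 2.3.3 and NumPy 2.4.6 under Python 3.11.15.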

Additional observations from a re-analysis of the deposited data

How the results depend on the processing

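Of 68 recomputed values, 45 stayed within 1.5 times of the reported count, or within the counting interval of the share, and 23 moved. Cebpb and Cebpd kept a promoter peak under every alternative. With q at most 1e-05, 3 of the 10 genes had a promoter peak (Cebpb, Cebpd and Lpl), 1 of the markers did, the share of coding genes was 52.0% and 2 summits held a C/EBP match. With a fold of at least 5, 2 genes (Cebpb and Cebpd) and 0 markers had one, the share was 48.8%, and 9 peaks in gene bodies and 35 within 50 kb were left. With the most upstream start only, 3 genes and 1 marker had one, as did 24 of the 50 other adipogenesis genes, and the share was 48.9%. With peaks required to overlap a start, 1 marker remained and the share was 48.7%. The share was 52.0% within 500 bp, 56.5% within 2 kb, 53.0% by summit position and 52.0% with starts of coding transcripts only. Flanks of 20 kb and 100 kb gave 35 and 125 peaks. A wider summit window gave 9 C/EBP, 5 TEAD and 20 RUNX matches. No paired analysis was possible because there was a single library. Depth limits the weak peaks most, since the promoter peaks of Pparg, Lpl and Plin1 rest on 12 to 16 fragments, and a start without a peak may still be accessible below this limit.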

Other observations

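The distal peaks upstream of Adipoq at chr16:23097103-23097928 and chr16:23136561-23137191 lie on related sequence. On opposite strands, they aligned over 606 columns with 93.6% identity and 14 gap columns. Of 280 pairs of peaks around the same gene that were aligned on both strands, this was the only one with an alignment score of 200 or more. Both peaks had high folds, 11.19 and 10.23, with 57 and 47 fragments at the summit. The authors kept uniquely mapped reads, so fragments that could not be told apart between the copies are not counted in either peak, and the values of both are uncertain to that extent.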
